A study of Homo sapiens with 18 samples.

Results

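Differentiated SH-SY5Y cells carrying ZNHIT3 with the C14R substitution were compared with cells carrying ZNHIT3 with a deletion, both at day 18 of neuronal differentiation. The comparison used 6 of the 18 RNA-seq libraries of the study, 3 for each variant, and the 13719 of 26372 gene symbols with a mean of at least 1 FPKM over those 6 libraries. FPKM is the number of fragments scaled to transcript length and library size. SH-SY5Y is an established human neuroblastoma line of sympathetic lineage that extends neurites when treated with retinoic acid.

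Cells of every group received a lentivirus built from the FUGW plasmid, whose parent form drives its insert from the ubiquitin C promoter. The insert was ZNHIT3 as wild type (WT), with C14R or with the deletion. At day 18 the cells had been kept for 18 days without serum in neurobasal and B27 medium with BDNF, KCl, dibutyryl cyclic AMP and all-trans retinoic acid. Libraries at day 0 of the same 3 constructs, and WT libraries at day 18, served as references with 3 libraries per group. The labels mention no removal of the endogenous gene, and the single ZNHIT3 value of a library sums transcripts of the delivered construct and of the cell's own gene. Nothing in the labels says that libraries of a group came from separate infections or cultures, so p-values measure the spread between these libraries, which may be technical.

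ZNHIT3 is a small zinc-finger protein of the HIT family, whose fingers hold zinc through conserved cysteine and histidine residues. It is known as an assembly factor of box C/D small nucleolar ribonucleoproteins (snoRNPs), where it partners NUFIP1 and the R2TP chaperone complex. Box C/D particles guide methylation and box H/ACA particles guide pseudouridylation of ribosomal RNA, while small Cajal body RNAs (scaRNAs) guide both modifications on spliceosomal RNAs.

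The ZNHIT3 gene is protein-coding, with 5 exons on the plus strand of chromosome 17 (36486629 to 36499310 in GRCh38). If the deletion's positions count coding bases, which the labels do not say, the substitution and the deletion fall in different exons. The reference sequence around each, with the deletion placed by that count, is shown because these 2 changes define the groups. The first line shows chr17:36486724-36486756, a stretch of exon 1, with codon 14, TGC, in capitals. The second line shows chr17:36493956-36493989, a stretch of exon 4, with coding positions 251 to 254, AAGA, in capitals.

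ZNHIT3 codon 14: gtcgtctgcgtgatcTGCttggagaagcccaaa

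ZNHIT3 coding positions 251 to 254: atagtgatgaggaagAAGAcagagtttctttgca

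Treatment labels of the deletion libraries give 251-254 in replicate 1, 251-255 in replicate 2 and 251-256 in replicate 3, and the titles call these libraries depleted. The series' own design text names 251-254 alone. The labels do not say what the positions count. The annotated coding sequence has 155 codons and 468 bases with its stop codon, so the positions lie beyond the last codon if they count amino acids and begin in codon 84 if they count coding bases. The 3 libraries were treated as 1 group, and a difference between the labelled deletions and a difference between replicates cannot be told apart.

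C14R replicate 1 stood apart from the other day 18 libraries. It had the highest or lowest value of the 9 day 18 libraries in 54.4% of tested genes (3746 above and 3718 below), against 14.8% to 24.0% for each of the other libraries. Its correlation across genes on log2(FPKM + 1) was 0.983 to 0.985 with C14R replicates 2 and 3, which correlated at 0.992 with each other and at 0.989 to 0.992 with the deletion libraries. The sum of its FPKM was 553500, against 708700 to 989600 in the other 8 libraries, while its relative depth, read from the steps of low values, was within the range of the compared libraries (81.2% to 98.6% of the deepest). The called genes and the lists that differed most are therefore given with and without it.

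The deviation of C14R replicate 1 ran along the GC content of transcripts. Tested genes were split into 5 equal classes by GC content, and each library was set against the mean of the other 8 of day 18. In the lowest class (30.2% to 40.8%) the median deviation of C14R replicate 1 was 0.14 on the log2 scale. In the highest class (57.8% to 75.8%) it was -0.27, and the other 8 libraries lay between -0.09 and 0.10 there. The median difference between C14R and deletion went from 0.06 in the lowest to -0.11 in the highest class with this library and from 0.01 to -0.02 without it. Genes furthest above the other 8 libraries included CENPH and MELK, a kinetochore protein and a mitotic kinase, with 21.3 FPKM against 13.9 to 15.7 and 18.0 FPKM against 12.1 to 13.5. Those furthest below included the abundant small RNAs RN7SL1 of the signal recognition particle, at 66350 FPKM against 122600 to 207100, and RPPH1 of ribonuclease P, at 9058 FPKM against 19860 to 30000.

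**Figure D1:**
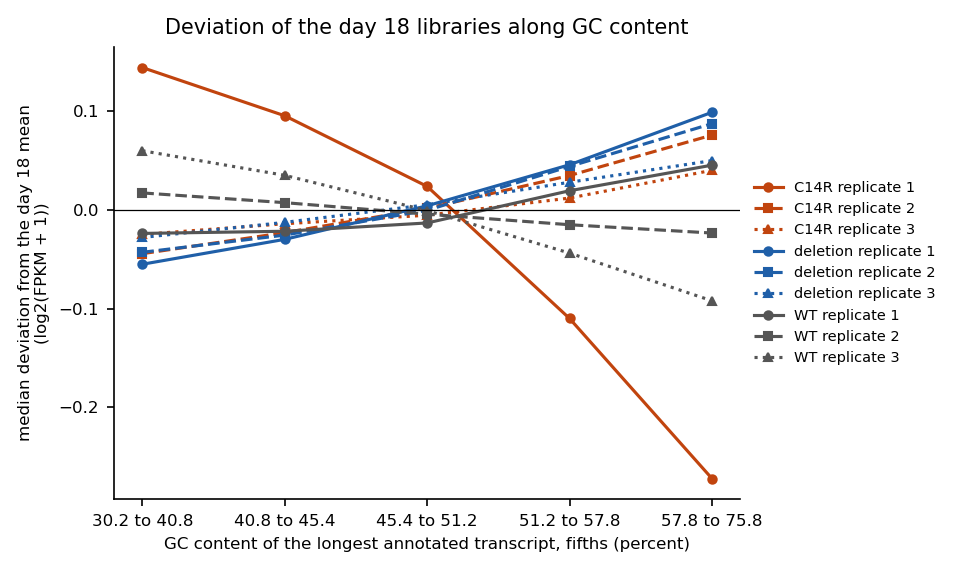
Median deviation of each of the 9 day 18 libraries from the mean of the other 8 on log2(FPKM + 1). Genes are in 5 equal classes, ordered by the GC content of their longest annotated transcript. C14R replicate 1 goes from 0.14 in the lowest class to -0.27 in the highest, outside the other 8 libraries at both ends.

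Markers of the cell type matched the labelled line. Of 12 sympathetic markers such as DBH and TH, 11 had a mean of at least 1 FPKM, and their summed level was 3100 to 3230 FPKM in C14R, 3040 to 3160 in deletion and 2970 to 3070 in WT libraries. Summed mesenchymal markers reached 102 to 114 and 101 to 108 FPKM in C14R and deletion libraries, and Schwann or glial markers 8.95 to 9.96 and 9.11 to 10.9. Epithelial and blood markers summed to at most 2.01 FPKM in any of the 6 libraries, with KRT14, CD3E and HBB at 0. No marker of these lists passed the threshold.

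Only 4 genes passed the adjusted threshold between the variants at day 18. ZNHIT3 itself was higher in C14R, and STK19, SNORA74B and SLC2A8 were lower, at an adjusted p under 0.05 in limma with Benjamini-Hochberg adjustment. They make up 0.0292% of the tested genes (0.00729% higher and 0.0219% lower). STK19 and SNORA74B met the filter on mean FPKM only through the deletion libraries. At an unadjusted p under 0.05 there were 1541 genes (11.2%), of which 694 were higher (5.06%) and 847 lower (6.17%) in C14R. In 1672 genes (12.2%) the 3 C14R and 3 deletion libraries did not overlap, with C14R above in 818 (5.96%) and below in 854 (6.22%). Without C14R replicate 1, limma also called 4 genes (0.0291% of 13739), ZNHIT3 higher (0.00728%) and STK19, SNORA74B and CCT6P1 lower (0.0218%), so 3 genes were called in both fits. The unadjusted count without that library was 695 (5.06%), 318 higher (2.31%) and 377 lower (2.74%).

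For nearly all other genes the data bound the difference in log2(FPKM + 1) closely. The median absolute log2 difference was 0.08 and its 95th percentile 0.27, on the log2(FPKM + 1) scale, where differences between low values come out smaller than their fold. The 95% interval of the difference in FPKM + 1 lay within 1.5-fold either way for 13061 genes (95.2%) and within 2-fold for 13626 (99.3%). For genes with low values the fold in FPKM itself can exceed these limits. The intervals take their spread from all 18 libraries. A log2 difference of at least 1 was met by 18 genes, of which 15 did not pass the threshold. Among these 15 were RNVU1-15 and RNVU1-14, variant U1 small nuclear RNAs with near-identical copies, and the box H/ACA snoRNA SNORA73B, listed at 455 FPKM in deletion replicate 2 and at 0 in the other 5 libraries.

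**Figure D2:**
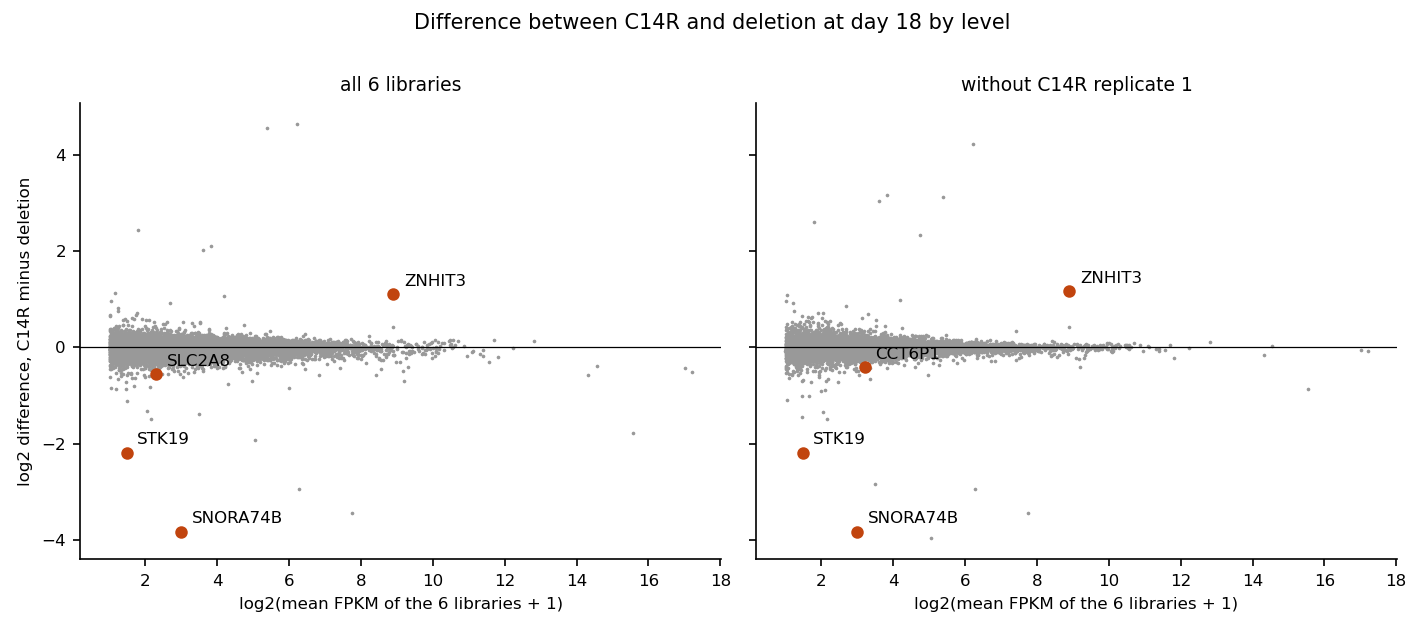
Log2 difference of C14R minus deletion at day 18 for each tested gene against its level, log2 of the mean FPKM of the 6 libraries plus 1, with all 6 libraries (left) and without C14R replicate 1 (right). Grey dots are genes and large named dots those past an adjusted p of 0.05: ZNHIT3, STK19 and SNORA74B in both panels, SLC2A8 on the left and CCT6P1 on the right.

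ZNHIT3, the delivered gene, differed in level between the groups. Its level does not show which construct a library carries. The day 18 values were 599.7, 756 and 604 FPKM for C14R and 298, 313 and 294 FPKM for the deletion. WT libraries had 1193, 1164 and 1103 FPKM. The 3 groups did not overlap, and C14R replicate 1 was the lowest of its group. The C14R mean was 653 ± 88.9 FPKM (SD, n = 3) against 301.5 ± 9.89 in deletion libraries, a ratio of 2.17 and a log2 difference of 1.10 (SE 0.07, limma adjusted p = 4.9e-08). Without C14R replicate 1 the ratio was 2.25 and the log2 difference 1.16 (limma adjusted p = 1.18e-07). An exact two-sided permutation test gave p = 0.1, the smallest that 20 relabelings of 3 against 3 libraries allow.

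Measured against WT, ZNHIT3 stood at 56.6% of the mean in C14R and at 26.1% in deletion libraries. Both comparisons share the WT libraries. By rank of FPKM within a library, ZNHIT3 was number 29 to 34 of all symbols in WT, 60 to 81 in C14R and 159 to 164 in deletion libraries, so it was among the most abundant RNAs in each. The gene overlaps MYO19 on the opposite strand, and the use of strand in counting is not given in the sources used here. MYO19, a mitochondrial myosin, had 7.20, 7.64 and 7.33 FPKM in C14R and 7.91, 6.47 and 7.21 in deletion libraries, far below ZNHIT3. Of the other 5 members of the HIT zinc-finger family in the table, including the snoRNP assembly factor ZNHIT6 and the chromatin remodelling subunit ZNHIT1, 0 passed the threshold.

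**Figure D3:**
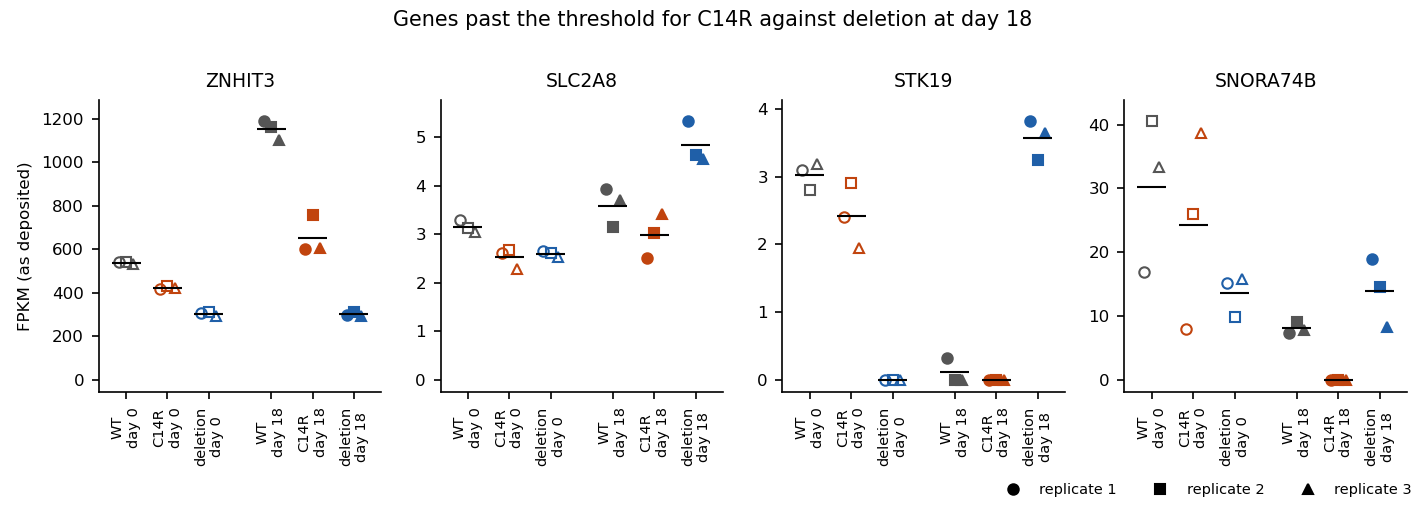
FPKM of the 4 genes past the threshold in each of the 18 libraries, by construct and day. Open symbols are day 0, filled symbols day 18, and lines are group means. At day 18 the C14R and deletion libraries do not overlap for any of the 4, and STK19 and SNORA74B are at 0 in all 3 C14R libraries.

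STK19 was listed at 0 in every C14R library of day 18. It encodes a nuclear DNA-binding protein and lies in the class III region of the major histocompatibility complex (GRCh38 chromosome 6, 31971091 to 31982821, plus strand, protein-coding). Deletion libraries had 3.83, 3.24 and 3.65 FPKM, and WT libraries 0.313, 0 and 0 (limma adjusted p = 1.4e-08 for C14R against deletion, and 1.41e-07 without C14R replicate 1). At day 0 the pattern over constructs was the opposite. Deletion libraries were then all at 0, while C14R libraries had 2.40, 2.90 and 1.95 FPKM and WT libraries 3.09, 2.80 and 3.19. Because the C14R libraries of day 18 are all at 0, STK19 passed the filter on low values through the deletion libraries, and no fold is given.

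The genes that overlap STK19 did not show its pattern. Its 5′ end overlaps DXO on the opposite strand, an enzyme of messenger RNA decapping that had 5.43, 6.69 and 6.37 FPKM in C14R and 6.83, 6.85 and 5.82 in deletion libraries. Its 3′ end overlaps C4A, complement component C4A, with 0.122 to 0.359 FPKM in C14R and 0.179 to 0.206 in deletion libraries. TNXB, tenascin XB, lies in the same region and was picked once the values were known. It was listed at 0 in the WT libraries and in C14R replicates 2 and 3, at 1.89e-05 FPKM in C14R replicate 1, and at 0.154, 0.172 and 0.169 FPKM in deletion libraries. At day 0 TNXB was at 0 in every library, while STK19 had values in the C14R and WT libraries. TNXB was under the filter on low values. A value of 0 in a table without counts can be a failed estimate, and with overlapping genes and unstated strand use the STK19 values are uncertain.

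SNORA74B, a box H/ACA snoRNA of 201 bases, was also listed at 0 in every C14R library of day 18. Deletion libraries had 18.9, 14.6 and 8.31 FPKM and WT libraries 7.29, 9.03 and 7.83 (limma adjusted p = 0.000258 for C14R against deletion, and 0.00277 without C14R replicate 1). At day 0 the groups overlapped, with 7.86, 26.0 and 38.7 FPKM in C14R and 15.1, 9.76 and 15.7 in deletion libraries. SNORA74B lies within ATP6V0E1, a subunit of the vacuolar proton pump, on the same strand (GRCh38 chr5:173020728-173020928). The host had 70.1, 72.1 and 63.7 FPKM in C14R and 65.2, 71.5 and 70.4 in deletion libraries, groups that overlapped. SNORA74B also passed the filter on low values through the deletion libraries alone.

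Its relative SNORA74A was tested too. SNORA74A had 109, 146 and 267 FPKM in C14R and 239, 126 and 125 in deletion libraries, which overlapped. The reference sequence of SNORA74B is shown because this RNA was called, with the ACA trinucleotide close to its 3′ end in capitals.

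SNORA74B: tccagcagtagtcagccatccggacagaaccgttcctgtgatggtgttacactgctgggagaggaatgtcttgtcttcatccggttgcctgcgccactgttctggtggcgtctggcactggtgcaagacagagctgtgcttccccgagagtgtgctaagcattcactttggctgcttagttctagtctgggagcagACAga

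SLC2A8, an intracellular hexose transporter (GLUT8; chromosome 9, 127397138 to 127408424, plus strand, protein-coding), was the only called gene with values in all 6 libraries besides ZNHIT3. It had 2.50, 3.02 and 3.41 FPKM in C14R and 5.34, 4.62 and 4.54 in deletion libraries, with 3.92, 3.14 and 3.70 in WT. The C14R and deletion libraries did not overlap, and C14R replicate 1 was the lowest of the 6. The log2 difference was -0.56 (SE 0.09, limma adjusted p = 0.0396). Without C14R replicate 1 it was -0.47 and did not pass (limma adjusted p = 0.186). The call was also lost in each fit that left out C14R replicate 2 or a deletion library. Of the other 7 glucose transporter genes tested, including the widely expressed SLC2A1, 0 passed.

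CCT6P1 was called without C14R replicate 1 and not with it. It is a transcribed pseudogene of the chaperonin subunit gene CCT6A (chromosome 7, 65751142 to 65763354, plus strand). Its values were 7.99, 6.75 and 6.83 FPKM in C14R, 9.17, 9.99 and 9.06 in deletion and 9.10, 8.91 and 9.42 in WT libraries. With all 6 libraries the log2 difference was -0.35 (limma adjusted p = 0.154), and without C14R replicate 1 it was -0.42 (limma adjusted p = 0.0194). It also passed with array weights (limma adjusted p = 0.00433) and with each library's GC trend removed (limma adjusted p = 0.00992). The array weight of C14R replicate 1 was 0.16. In all, CCT6P1 passed in 3 of 19 alternatives. With only the 9 libraries of day 18 the limma adjusted p was 0.705, and with only the 6 compared it was 0.786. CCT6A had 119.7, 107 and 111 FPKM in C14R and 103, 107 and 106 in deletion libraries, and reads of the pseudogene and its parent could be divided by the counting in ways not given in the sources used here.

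Small RNAs of the nucleolus and Cajal body were mostly without values. Of 269 box C/D snoRNA symbols, 265 were at 0 in all 6 libraries and 3 were tested. Of 107 box H/ACA symbols, 99 were at 0 in all 6 and 8 were tested, and of 24 scaRNAs 12 were tested. None of the 3 box C/D members passed. SNORD3A, the U3 snoRNA, which has near-identical copies, had 5590, 29941 and 47245 FPKM in C14R and 67914, 70721 and 67978 in deletion libraries, a log2 difference of -1.79 (SE 1.20, limma adjusted p = 0.539) that was -0.87 without C14R replicate 1. The C14R libraries lay below the deletion libraries for SNORD3A; C14R replicate 1 was the lowest of the 6. Besides SNORA74B, 0 of the tested box H/ACA members passed.

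The scaRNAs lay lower in C14R than in deletion libraries as a list. By library, their median deviation from the day 18 mean was -0.609, -0.166 and 0.0318 in C14R and 0.114, 0.135 and 0.145 in deletion libraries. WT libraries lay at 0.189, -0.0204 and -0.0736, a range that held C14R replicate 3. The median log2 difference of the scaRNAs was -0.23, and -0.20 without C14R replicate 1, against -0.0037 and -0.0042 over all tested genes. Of the 12, 6 were lower and 0 higher at an unadjusted p under 0.05, both with and without that library. Over all tested genes 6.17% were lower, and 2.74% without C14R replicate 1. The adjusted threshold was passed by 0 of the scaRNAs (smallest limma adjusted p = 0.392). In 5 of the 12 all C14R libraries lay below all deletion libraries, against 6.22% of all tested genes. SCARNA7 had 3414, 3062 and 3539 FPKM in C14R and 3746, 3859 and 3969 in deletion libraries, with a log2 difference of -0.21 and of -0.23 without C14R replicate 1. SCARNA17 had 166, 171 and 159 FPKM in C14R and 175, 206 and 202 in deletion libraries.

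Replicate 1 of C14R weighed more on other scaRNAs. SCARNA12 had 295, 497 and 579 FPKM in C14R and 701, 715 and 724 in deletion libraries, a log2 difference of -0.70 that was -0.41 without C14R replicate 1. SCARNA2 had 334, 543 and 572 FPKM in C14R and 665, 675 and 653 in deletion libraries (-0.50, and -0.25 without C14R replicate 1). SCARNA10 lay the other way, at 7863, 7112 and 7690 FPKM in C14R and 6585, 6818 and 7166 in deletion libraries. With each library's GC trend removed the list median was -0.27. SCARNA9 and SCARNA9L are near-identical in part, so their values are uncertain.

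**Figure D4:**
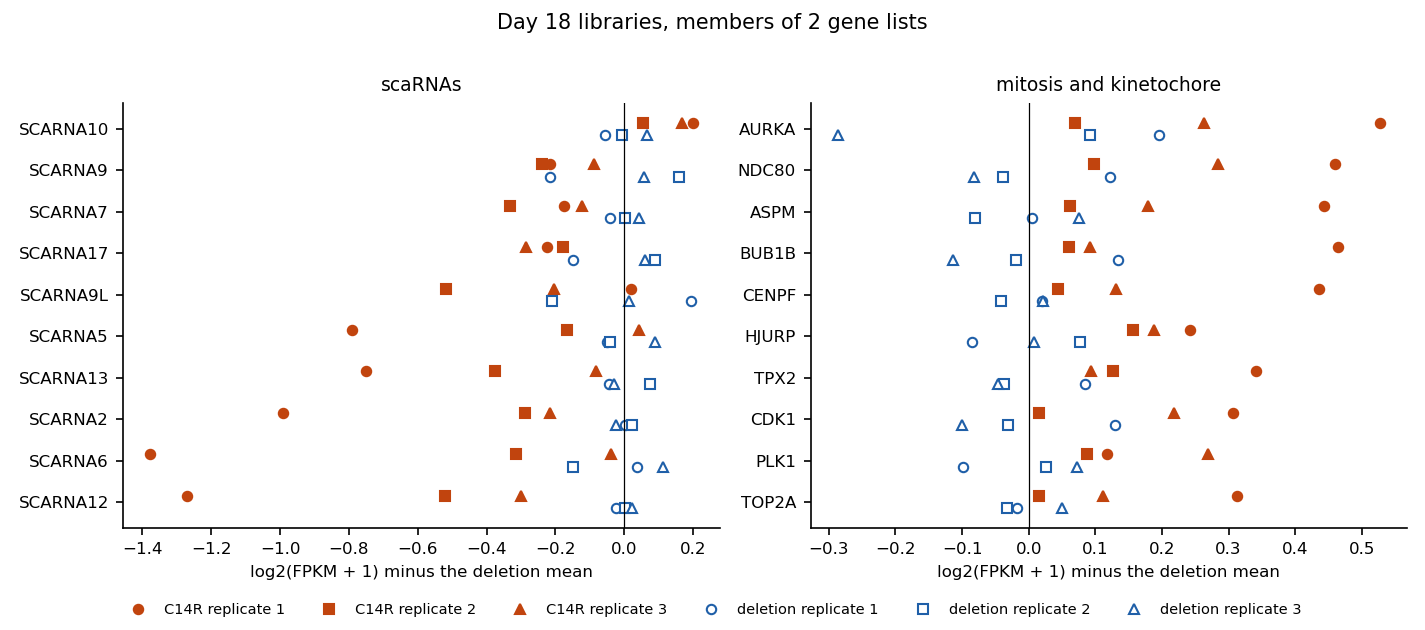
Each of the 6 libraries as log2(FPKM + 1) minus the mean of the deletion libraries, for the 10 scaRNAs with a value above 0 in all 6 libraries (left) and the 10 mitosis and kinetochore genes with an unadjusted p under 0.05 (right). Filled symbols are C14R, open symbols deletion; C14R replicate 1 (circles) is the lowest library for SCARNA12, SCARNA6, SCARNA2, SCARNA13 and SCARNA5 and the highest for each mitosis gene shown except PLK1.

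Of the proteins that build snoRNPs, ZNHIT3 alone passed the threshold among the 22 members listed, all of which were tested. The median log2 difference was 0.02, and -0.02 without C14R replicate 1. TGS1, the cap hypermethylase of snoRNAs, had 15.4, 13.5 and 12.8 FPKM in C14R and 12.5, 11.1 and 13.4 in deletion libraries. NOP56, a core box C/D protein, had 28.0, 28.7 and 28.7 FPKM in C14R and 31.6, 28.9 and 30.8 in deletion libraries, and NOP58, its partner, 33.4, 28.1 and 28.9 and 28.1, 29.1 and 29.7. Of the 23 tested snoRNA host genes and 33 genes of ribosome biogenesis and RNA polymerase I 0 passed, with and without C14R replicate 1, against 0.0292% of all tested genes. At an unadjusted p under 0.05, 1 host gene was higher and 2 lower, and 0 and 0 without that library. Of the ribosome biogenesis genes 5 were higher and 3 lower, and 1 and 0 without it. Over all tested genes 5.06% were higher and 6.17% lower, and 2.31% and 2.74% without it.

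Mitosis and kinetochore genes lay higher in C14R, and less so without C14R replicate 1. Their median log2 difference was 0.12 over 26 members and 0.05 without that library. At an unadjusted p under 0.05, 10 of 26 were higher and 0 lower, against 5.06% of all tested genes higher. Without C14R replicate 1 it was 4 of 26 and 0, against 2.31% of all tested genes higher. The adjusted threshold was passed by 0 (smallest limma adjusted p = 0.392). In 4 of 26 all C14R libraries lay above all deletion libraries, against 5.96% of all tested genes. HJURP, the chaperone that loads the centromeric histone CENP-A, had 4.34, 4.03 and 4.14 FPKM in C14R and 3.26, 3.76 and 3.54 in deletion libraries, without overlap, for a log2 difference of 0.20 and of 0.17 without C14R replicate 1. NDC80, which binds kinetochores to microtubules, had 8.82, 6.64 and 7.70 FPKM in C14R and 6.77, 5.95 and 5.74 in deletion libraries. MKI67, the proliferation antigen Ki-67, had 28.1, 21.0 and 22.6 and 21.4, 20.7 and 22.6, groups that overlapped.

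By library, the median deviation of the mitosis list from the day 18 mean was 0.25, -0.01 and 0.11 in C14R and 0.04, -0.05 and -0.00157 in deletion libraries, so C14R replicate 1 was the highest of the 6. WT libraries lay at -0.105, -0.05 and -0.09. Removing each library's GC trend left the list median at 0.08. In bulk libraries more dividing cells and more of these RNAs per dividing cell cannot be told apart. Of 24 genes of DNA replication and nucleotide synthesis, 4 were higher and 0 lower at an unadjusted p under 0.05. Without C14R replicate 1 the counts were 2 and 0. Over all tested genes 5.06% were higher, and 2.31% without that library. In the DNA replication list, CHAF1A, a subunit of the chromatin assembly factor that follows the replication fork, had 7.30, 6.43 and 6.54 FPKM in C14R libraries. It had 5.92, 5.35 and 5.78 in deletion libraries.

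Clustered histone genes, whose messenger RNAs are made in S phase and mostly lack poly(A) tails, lay on the other side of 0. Of 62 tested, 13 were lower and 0 higher at an unadjusted p under 0.05, against 6.17% of all tested genes lower. Without C14R replicate 1 the counts were 7 and 0, against 2.74% of all tested genes lower. The adjusted threshold was passed by 0 (smallest limma adjusted p = 0.313). The median was -0.10, -0.07 without C14R replicate 1 and -0.05 with each library's GC trend removed. By library, the median deviation from the day 18 mean was -0.103, -0.0706 and 0.0651 in C14R libraries. It was 0.138, 0.0516 and 0.0535 in deletion libraries, so the groups overlapped, and 0.144, -0.0427 and -0.195 in WT libraries. HIST1H4A, a histone H4 gene, had 19.1, 20.1 and 30.0 FPKM in C14R and 38.1, 38.9 and 35.0 in deletion libraries, without overlap (log2 difference -0.70, and -0.58 without C14R replicate 1). HIST2H2BC had 5.11, 6.86 and 4.76 and 8.51, 11.1 and 7.63 FPKM, also without overlap. Histone genes of one class are near-identical in their coding parts, so the split of reads among them is uncertain.

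Genes of synaptic vesicles and release had a median of -0.10 over 21 members, -0.06 without C14R replicate 1 and -0.03 with each library's GC trend removed. With all libraries 3 were lower and 0 higher at an unadjusted p under 0.05, against 6.17% of all tested genes lower, and 4 and 0 without C14R replicate 1, against 2.74% lower. In 8 of 21 all C14R libraries lay below all deletion libraries, against 6.22% of all tested genes. SYT4, a synaptotagmin of dense-core vesicles, had 169.8, 158 and 159 FPKM in C14R and 172, 169 and 172 in deletion libraries. SYP, synaptophysin of the vesicle membrane, had 61.8, 81.0 and 79.6 and 81.5, 91.1 and 86.1, with C14R replicate 1 the lowest. The groups did not overlap for SYP, while for SYT4 C14R replicate 1 lay within the range of the deletion libraries.

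Lists of neuronal identity genes had medians near 0. The catecholamine (10 tested), cholinergic (10), dense-core granule (10), neuronal cytoskeleton (17) and sympathetic transcription factor genes (10) had medians between -0.02 and 0.01, each with 1 member lower and 0 higher at an unadjusted p under 0.05, against 6.17% of all tested genes lower. Without C14R replicate 1 the catecholamine and transcription factor lists had 1 lower and the cholinergic, dense-core granule and cytoskeleton lists 0, and the cholinergic median went from -0.02 to 0.02. CYB561, the electron carrier of chromaffin granules, had 26.8, 35.6 and 31.4 FPKM in C14R and 34.9, 39.0 and 37.9 in deletion libraries. DBH, which makes noradrenaline, had 288, 465 and 412 and 413, 463 and 432, with C14R replicate 1 apart from the other 5 libraries. TUBB3, neuronal tubulin, had 201, 268 and 259 and 279.7, 267 and 263, again with C14R replicate 1 apart. Of 12 retinoic acid targets 2 were lower at an unadjusted p under 0.05, and 0 without C14R replicate 1.

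**Figure D5:**
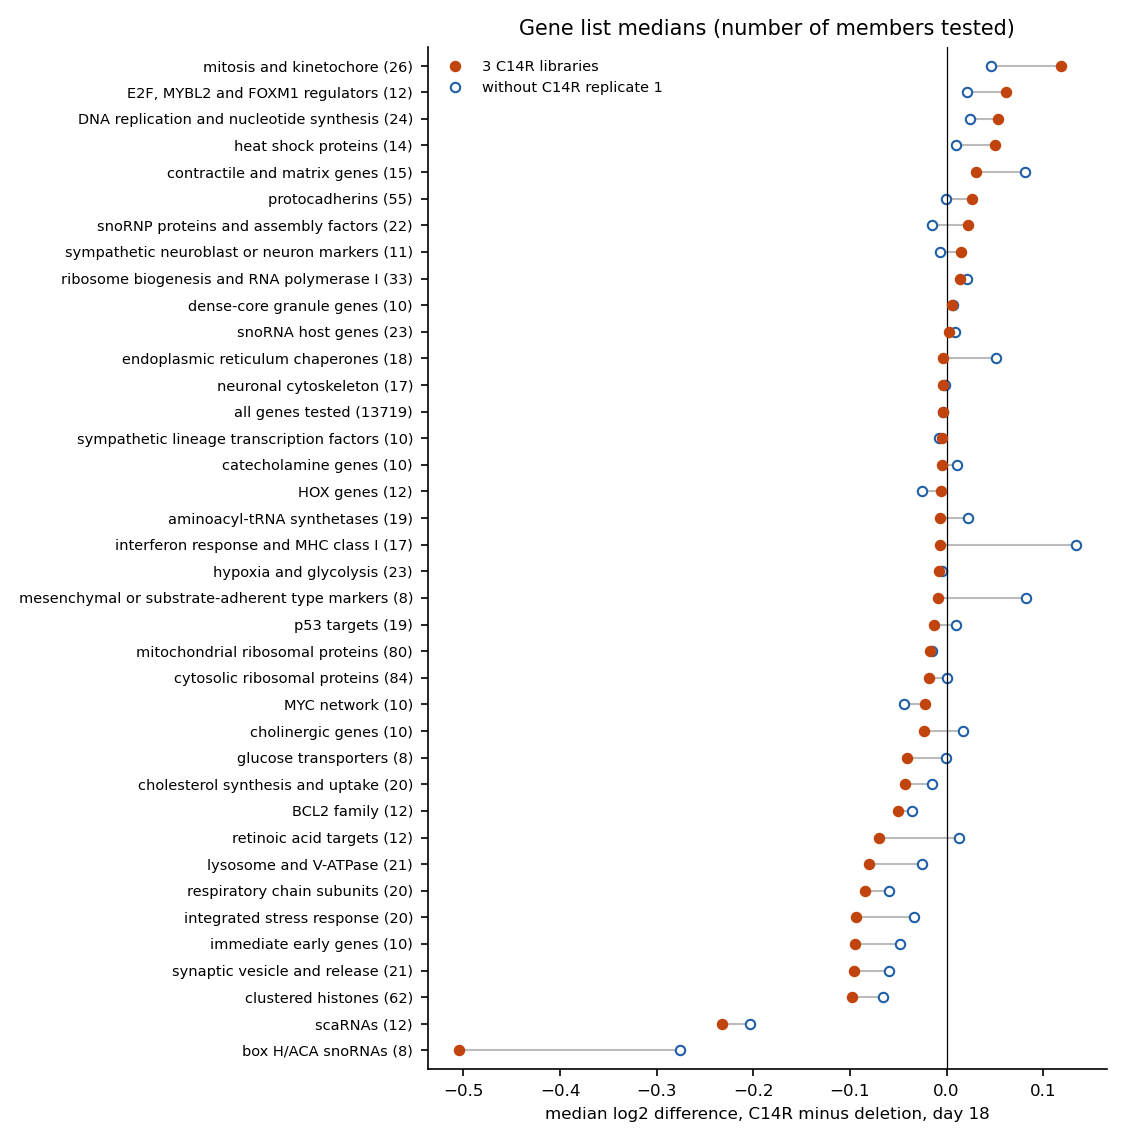
Median log2 difference of C14R minus deletion at day 18 for all tested genes and for each gene list with at least 8 tested members, with 3 C14R libraries (filled) and without C14R replicate 1 (open). Most medians lie within 0.1 of 0, and box H/ACA snoRNAs and scaRNAs lie lowest in both.

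Of 20 genes of the integrated stress response 3 were lower and 0 higher at an unadjusted p under 0.05, against 6.17% of all tested genes lower, and 2 and 0 without C14R replicate 1, against 2.74%. Their median was -0.09, -0.03 without that library and -0.04 with each library's GC trend removed. DDIT3, the transcription factor CHOP, had 11.5, 14.3 and 12.1 FPKM in C14R, 15.8, 18.2 and 16.4 in deletion and 24.8, 20.5 and 20.2 in WT libraries, in 3 groups that did not overlap. Its log2 difference between C14R and deletion was -0.39 (limma adjusted p = 0.313), and -0.33 without C14R replicate 1 (limma adjusted p = 0.755). DDIT3 overlaps MARS and MBD6 on the opposite strand, and strand use is not known here, so its value is uncertain. MTHFD2, a mitochondrial folate enzyme, had 20.1, 20.2 and 20.5 FPKM in C14R and 23.2, 21.5 and 22.0 in deletion libraries.

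In several further lists the counts rested on C14R replicate 1. Over all tested genes 5.06% were higher and 6.17% lower at an unadjusted p under 0.05, and 2.31% and 2.74% without it. Of 20 respiratory chain subunits 6 were lower and 0 higher, and 1 and 0 without it, while their median log2 difference was -0.0844 with it and -0.0592 without it. Of 21 lysosome and proton pump genes 4 were lower and 0 higher, and 1 and 1 without it. Of 84 cytosolic ribosomal protein genes 10 were higher and 4 lower, and 0 and 0 without it. Of 14 heat shock genes 5 were higher and 1 lower, and 1 and 0 without it. Interferon response and MHC class I genes went the other way: their median was -0.0071 over 17 members with C14R replicate 1 and 0.13 without it.

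ANAPC4 had the smallest adjusted p above the threshold; it was picked once the values were known. This scaffold subunit of the anaphase-promoting complex had 10.5, 10.5 and 10.1 FPKM in C14R, 7.86, 8.67 and 8.14 in deletion and 9.97, 10.3 and 10.1 in WT libraries (log2 difference 0.31, limma adjusted p = 0.0666). Without C14R replicate 1 the log2 difference of ANAPC4 was 0.30 (limma adjusted p = 0.193). In the MYC network list, where 0 of 10 tested members passed, the smallest adjusted p was that of MXD4. MXD4, a MAX-binding repressor of the MYC network, had 7.77, 9.31 and 9.25 FPKM in C14R and 11.3, 11.1 and 11.3 in deletion libraries (log2 difference -0.33, limma adjusted p = 0.189, and -0.25, limma adjusted p = 0.707, without C14R replicate 1). In both genes the C14R and deletion libraries did not overlap.

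The same contrast at day 0 gave 7 genes (0.051% of the same 13719 genes), 4 higher (0.0292%) and 3 lower (0.0219%) in C14R, at an adjusted p under 0.05 in limma, and 1290 at an unadjusted p under 0.05 (9.4%; 4.61% higher and 4.8% lower). They were STK19, ZNHIT3, FGF14-AS2, FSTL5, NPY, APOM and VIM, of which STK19 and ZNHIT3 were also called at day 18. For STK19 the direction was opposite. ZNHIT3 had 419, 432 and 421 FPKM in C14R and 306, 310.1 and 292 in deletion libraries at day 0, a ratio of 1.40 and a log2 difference of 0.49 (limma adjusted p = 0.00846). NPY, neuropeptide Y, had 91.8, 87.5 and 93.8 FPKM in C14R and 136, 117 and 118 in deletion libraries at day 0, and 674, 595 and 640.1 and 645, 559.8 and 636 at day 18, where the groups overlapped.

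Tested directly, the difference between C14R and deletion changed with day for 7 genes (0.051%), of which 4 had a higher (0.0292%) and 3 a lower difference (0.0219%) at day 18, at an adjusted p under 0.05 in limma, with 813 at an unadjusted p under 0.05 (5.93%; 3.04% higher and 2.89% lower). For ZNHIT3 it was larger at day 18 by 0.62 on the log2 scale (SE 0.09, limma adjusted p = 0.0208). VIM, the intermediate filament protein vimentin, went from 528, 562.5 and 528 FPKM in C14R and 652, 617 and 613 in deletion libraries at day 0 to 54.3, 52.7 and 55.2 and 51.0, 48.7 and 48.8 at day 18. C14R libraries thus lay below deletion libraries at day 0 and above them at day 18, without overlap on either day. APOM, a lipid-binding apolipoprotein encoded in the class III region near STK19, had 1.30, 1.27 and 0.767 FPKM in C14R and 2.51, 2.71 and 2.22 in deletion libraries at day 0, and 2.43, 1.84 and 2.14 and 2.05, 1.54 and 1.34 at day 18, where they overlapped.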

How the data were processed

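RNA-seq of SH-SY5Y cells was analysed in 18 libraries, 6 groups of 3. Ribosomal RNA was depleted before library preparation, per the labels' protocols. The authors deposited 1 table of FPKM values per gene symbol. Per the submitters' processing notes, TopHat2, STAR, Cufflinks 2.2.1 and build hg38 were used; the annotation and the use of strand are not given in the sources used here. FPKM carry no counts; the steps of low values gave relative depths of 59.0% to 100.0% of the deepest library, and no counting intervals are given.

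Values were taken as log2(FPKM + 1) and fitted in limma 3.58.1 (R 4.3.3) over all 18 libraries in 6 group means, with a mean-variance trend and Benjamini-Hochberg adjustment over genes with a mean of at least 1 FPKM in the 6 compared libraries. The script was tested on simulated data. GC content and positions came from GENCODE version 29 (GRCh38), matched by symbol for 12859 tested genes (93.7%).

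Named genes were ZNHIT3, genes past an adjusted p of 0.05 in the comparison (up to 12 per direction) or without C14R replicate 1 (up to 10 per direction, libraries not overlapping), up to 5 of the interaction, the 10 furthest above and below in C14R replicate 1, and members of 44 gene lists. The members and lists were chosen with earlier results of these data known. Alternatives covered pseudocount, filters, scaling, small RNA genes, replicate block, trend, array weights, the libraries fitted and C14R or deletion libraries left out 1 at a time. WT libraries were not left out, and for the interaction only libraries of day 18 were. Removal of each library's GC trend (span 0.3) was chosen after seeing the data. Some items are not reported here.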

Additional observations from a re-analysis of the deposited data

Results flagged for a closer look

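For 7 genes the difference between C14R and deletion itself differed between day 18 and day 0 at an adjusted p under 0.05 in limma. The change of the log2 difference was 0.619 for ZNHIT3, -3.95 for STK19 and -4.4 for SNORA74B. It was 0.98 for APOM, 0.34 for VIM, -0.507 for FSTL5 and 0.291 for TFPI2. FSTL5, a follistatin-like protein, had 5.49, 4.99 and 5.09 FPKM in C14R and 3.37, 4.06 and 3.87 in deletion libraries at day 0, and 24.1, 22.4 and 22.1 and 24.0, 25.3 and 25.9 at day 18. TFPI2, a protease inhibitor of the extracellular matrix, is named here because of this test, with its values known. TFPI2 had 53.7, 54.7 and 53.5 FPKM in C14R and 61.6, 63.4 and 60.4 in deletion libraries at day 0, and 191, 186 and 179 and 170.5, 172 and 176 at day 18. TFPI2 lies within GNGT1 on the opposite strand, so its value is uncertain.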

How the results depend on the processing

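The day 18 count of 4 genes became 13 with no filter on low values, 2 with a mean FPKM of at least 5 and 9 with array weights. It ranged from 3 to 6 when 1 C14R or deletion library of day 18 was left out. The day 0 count of 7 became 4 with a mean FPKM of at least 5, with quantile normalization and with no mean-variance trend. It was 85 with array weights and 2 with an absolute log2 difference of at least 0.5. It ranged from 1 to 4 without 1 C14R or deletion library of day 0. The interaction count of 7 became 2 with small RNA genes left out and with no mean-variance trend. It ranged from 2 to 5 without 1 C14R or deletion library of day 18. No library of day 0 was left out for the interaction. ZNHIT3 kept its direction and call at day 18 in all 19 alternatives (log2 difference 0.9953 to 1.298). The calls of STK19 and SNORA74B, listed at 0 in each C14R library, are no sign of stability. SLC2A8 lost its call in 10 of 18 alternatives. In the interaction, calls were lost for APOM in 8 of 16 alternatives, FSTL5 in 9 of 17, TFPI2 in 11 of 17, VIM in 6 of 17 and ZNHIT3 in 4 of 17. The cause was not tested. Of 37 list medians, 14 kept their sign in each alternative, among them scaRNAs (-0.389 to -0.162), clustered histones (-0.122 to -0.0283) and mitosis genes (0.0458 to 0.182), and 23 did not. The replicate block, the fit with no mean-variance trend and the fits on day 18 or compared libraries alone cannot change a list median, so they are no sign of stability. FPKM without counts and 3 libraries a group limit what can be seen of genes with low values.

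Same-numbered C14R and deletion libraries of day 18 did not deviate together (correlations -0.00641, 0.0531 and -0.0517). These values cannot show whether the libraries were paired by culture or batch. With a replicate block the day 18 count was 3, the day 0 count 5 and the interaction count 6, and the log2 difference of ZNHIT3 was 1.105.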

Other observations

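Of 15 contractile and extracellular matrix genes, 2 were higher and 0 lower in C14R at an unadjusted p under 0.05, against 5.06% of all tested genes higher, and 3 and 0 without C14R replicate 1, against 2.31%, with 0 past the adjusted threshold in limma. Their median log2 difference was 0.03, and 0.08 without that library, and it changed sign in 2 of 19 alternatives (lowest -0.0142). Some of these alternatives, such as the replicate block, cannot change a list median. CALD1, the actin-binding protein caldesmon, had 25.5, 21.8 and 22.7 FPKM in C14R and 19.8, 21.1 and 19.6 in deletion libraries, without overlap. Immediate early genes, which neurons induce on stimulation, had a median of -0.09 over 10 members, and -0.05 without C14R replicate 1.

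SNORA58, a box H/ACA snoRNA within MRPL3, was chosen after its values were seen. It had 3.22, 8.46 and 2.94 FPKM in C14R libraries, 0 in the 3 deletion libraries and 0, 0 and 9.61 in WT libraries (limma adjusted p = 0.417).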
